A study of Mus musculus with 4 samples.

Results

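The 4 Hox clusters of the mouse were examined as 4 windows of mm9, together 610 kb: HoxA (chr6:52090001-52230000), HoxB (chr11:96040001-96240000), HoxC (chr15:102740001-102880000) and HoxD (chr2:74490001-74620000). The windows were chosen by position, with earlier results of these data known, and every read and called peak in them was used. Each was set beside 2 flanks of its own size, the adjacent one on the left (lower coordinates) and on the right, 8 flanks in all. The windows held 30 of 32256 H3K4me2 peaks, 5 of 5106 peaks of the LSD1 library and 0 of 158 IgG peaks.

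Chromatin came from 129SV embryonic stem cells of the R1ES line, passages 13 to 18, grown in the presence of LIF and fixed with formaldehyde. The 4 groups shared these cells and differed in what was recovered: DNA without antibody (Input), DNA recovered with control IgG, with an antibody said in the labels to be against LSD1, or with one against H3K4me2, the form of histone H3 dimethylated at lysine 4. Each group was 1 library, of 3801082 (Input), 4755619 (IgG), 5833862 (LSD1) and 6416657 (H3K4me2) reads. With no replicates, no test between groups was possible, and every interval below is a 95% interval for counting error within these libraries. The reads carry no measure of expression, so the labelled cell type was not checked against marker genes.

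Hox genes encode homeodomain transcription factors that set position along the body axis of the embryo, and within a cluster their order on the chromosome follows the order of their expression along that axis. In embryonic stem cells the clusters are silent or nearly so and are textbook targets of Polycomb complexes, which lay down H3K27me3 in broad stretches, with patches of H3K4 methylation inside them. LSD1 (Kdm1a) takes methyl groups off mono- and dimethylated H3K4. For this antibody the labels list a catalogue number known from elsewhere as that of an H3K27me3 antibody, from a different supplier. Which antibody was used was not settled here, so the name LSD1 stands for the library as labelled.

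The clusters named 38 genes. In the order of the gene table used here these are Hoxa2, Hoxa3, Hoxa4, Hoxa5, Hoxa6, Hoxa7, Hoxa9, Hoxa10, Hoxa11 and Hoxa13 on chromosome 6, and Hoxb13, Hoxb9, Hoxb8, Hoxb7, Hoxb6, Hoxb5, Hoxb3, Hoxb4, Hoxb2 and Hoxb1 on chromosome 11. Chromosome 15 carries Hoxc13, Hoxc12, Hoxc11, Hoxc10, Hoxc9, Hoxc8, Hoxc6, Hoxc5 and Hoxc4, and chromosome 2 carries Hoxd13, Hoxd12, Hoxd11, Hoxd10, Hoxd9, Hoxd8, Hoxd3, Hoxd4 and Hoxd1. The low-numbered genes of each cluster are known for roles in the hindbrain and neck region, and those numbered 9 to 13 for roles in the posterior trunk, limbs and urogenital tract. The gene table places Hoxb3 before Hoxb4 and Hoxd3 before Hoxd4, an order that was not checked against their coding parts. It belongs to another assembly. Reads and peaks were therefore described by their place in a window and not given to a gene, exon or intron.

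Sequence was compared at the promoters that RefSeq gives for 22 of the 38 genes (24 promoters of 300 bases in assembly GRCm38.p6, 250 before and 50 after the start). From HoxB these are only Hoxb1, Hoxb4 and Hoxb8, and from HoxC only Hoxc4, so the values below describe mostly HoxA and HoxD. CpG-rich promoters are known as the usual sites of both Polycomb binding and H3K4 methylation in embryonic stem cells. The dinucleotide CG, which reads the same on both strands, occurred at a median of 14.5 times in the Hox promoters, against 7 times over all 32851 promoters of that length. At least 10 copies were present in 17 of the 24 (70.8%), against 43.5% of all promoters, and at least 1 copy in 94.6% of all promoters. The members varied widely, from 4 to 45 copies. The promoter with the most copies and one of the 3 with the fewest are shown, with CG in capitals, to let the range be seen. Hoxa9 and 1 promoter of Hoxd11 also had 4 copies, and Hoxd4 is shown as the one with the lowest share of G and C. They were not placed on the mm9 windows, so no read count belongs to them. Hoxa13 (GRCm38.p6 chr6:52260831-52261130, minus strand), a gene of digit and genital development, had 45 copies and 81.0% G and C:
Hoxa13: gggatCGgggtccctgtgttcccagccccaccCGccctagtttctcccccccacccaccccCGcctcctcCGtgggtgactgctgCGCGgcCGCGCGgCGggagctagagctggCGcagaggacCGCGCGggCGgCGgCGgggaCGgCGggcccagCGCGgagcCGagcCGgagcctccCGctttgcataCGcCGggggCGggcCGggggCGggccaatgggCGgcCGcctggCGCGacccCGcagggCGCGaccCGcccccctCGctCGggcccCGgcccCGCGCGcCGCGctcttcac
Hoxd4 (GRCm38.p6 chr2:74721728-74722027, plus strand), a gene of the hindbrain and neck region, had 4 copies and 39.7% G and C:
Hoxd4: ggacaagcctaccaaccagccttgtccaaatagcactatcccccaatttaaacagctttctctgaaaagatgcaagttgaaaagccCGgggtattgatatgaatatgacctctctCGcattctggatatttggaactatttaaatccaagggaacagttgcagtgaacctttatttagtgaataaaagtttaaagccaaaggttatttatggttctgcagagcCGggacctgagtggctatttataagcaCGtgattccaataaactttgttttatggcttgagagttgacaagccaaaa

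The first comparison asked whether the libraries held more reads in the clusters than beside them. Levels are given as RPM per kb, where RPM counts reads in each 1000000 that a library holds. Over the 4 windows together the Input library stood at 0.506 RPM per kb, against 0.510 in the flanks. The IgG library stood at 0.700 in the windows and 0.549 in the flanks. The LSD1 library stood at 0.924 and 0.644, and the H3K4me2 library at 1.10 and 0.726. Density in the windows divided by that in the flanks was thus 0.993 (0.925 to 1.07) for Input, 1.27 (1.21 to 1.35) for IgG, 1.44 (1.37 to 1.50) for LSD1 and 1.51 (1.46 to 1.58) for H3K4me2. All 3 precipitated libraries, the control IgG included, were denser in the windows, while Input was level.

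The HoxA window held 248 Input, 532 IgG, 826 LSD1 and 1142 H3K4me2 reads. In HoxB, the longest window, these were 445, 657, 1049 and 1296 reads in the same order. The HoxC window held 245, 470, 780 and 1020 reads, and the HoxD window 236, 373, 632 and 844. Per kb, H3K4me2 ranged from 1.01 RPM in HoxB and HoxD to 1.27 RPM in HoxA, and LSD1 from 0.833 RPM in HoxD to 1.01 RPM in HoxA. In every window the order was H3K4me2, LSD1, IgG, Input.

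**Figure D1:**
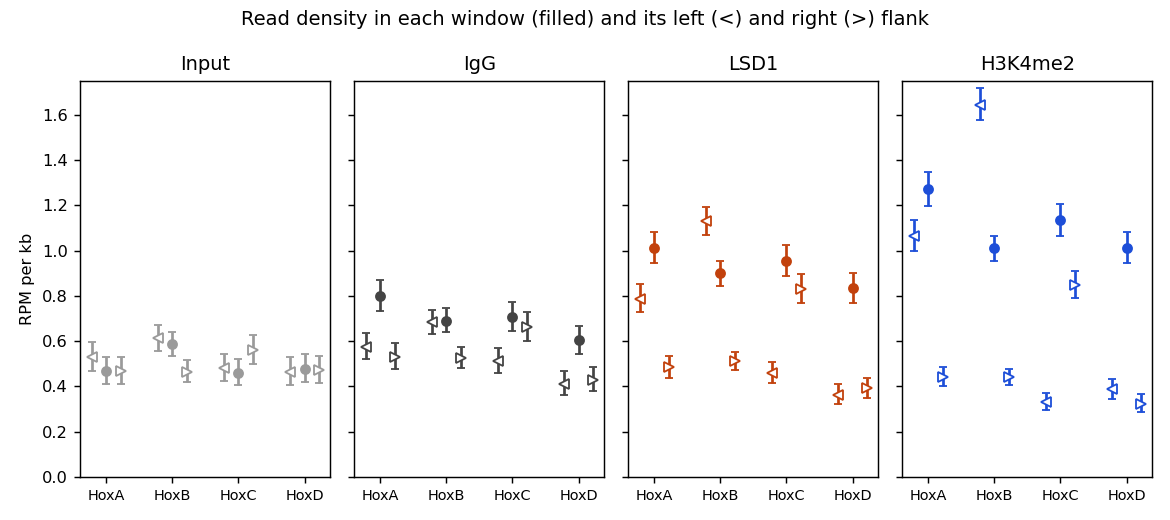
Read density (RPM per kb, y axis) of the 4 libraries in each Hox window (filled circles) and in its left and right flank (open triangles), with exact Poisson 95% intervals for counting error. LSD1 in HoxD stood at 0.833 RPM per kb between flanks of 0.364 and 0.392, whereas in HoxB it stood at 0.899 between 1.13 on the left and 0.511 on the right.

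The flanks of one cluster were not alike. HoxD lay between 2 poor flanks: LSD1 stood at 0.833 RPM per kb against 0.364 on the left and 0.392 on the right, and H3K4me2 at 1.01 against 0.387 and 0.324. HoxA stood above its right flank (LSD1 0.484, H3K4me2 0.442) far more than above its left (0.787 and 1.06). HoxC had a left flank at 0.458 RPM per kb for LSD1 and 0.331 for H3K4me2, and a right flank at 0.831 and 0.848. HoxB was the exception, as its left flank exceeded the cluster itself, with 1.13 RPM per kb for LSD1 and 1.65 for H3K4me2 and with 23 H3K4me2 peaks.

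Against IgG, the LSD1 library was 1.32-fold higher (1.25 to 1.39) in the 4 windows together, and 1.17-fold (1.12 to 1.23) in the flanks. The ratio was 1.27 (1.13 to 1.41) in HoxA, 1.30 (1.18 to 1.44) in HoxB, 1.35 (1.20 to 1.52) in HoxC and 1.38 (1.21 to 1.57) in HoxD. These 4 intervals overlap, so the clusters were not told apart at this depth. The H3K4me2 library was 1.57-fold over IgG (1.49 to 1.65), from 1.46 (1.33 to 1.61) in HoxB to 1.68 (1.48 to 1.90) in HoxD.

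Divided by the same ratio in its own flanks, LSD1 to IgG was 1.54 (1.29 to 1.84) in HoxD and 1.23 (1.06 to 1.43) in HoxC. It was 1.10 (0.952 to 1.28) in HoxA and 0.958 (0.847 to 1.08) in HoxB, where the intervals include 1. For H3K4me2 to IgG the values were 1.98 (1.67 to 2.36) in HoxD, 1.60 (1.38 to 1.85) in HoxC, 1.17 (1.02 to 1.34) in HoxA and 0.847 (0.753 to 0.954) in HoxB. These values depended on the flanks used. With flanks taken 1 window size further out, HoxC stood at 0.990 (0.865 to 1.13) for H3K4me2 and 1.07 (0.928 to 1.23) for LSD1, and HoxA at 1.96 (1.69 to 2.27) and 1.33 (1.14 to 1.55). HoxB then stood at 0.967 (0.861 to 1.09) for H3K4me2 and 1.04 (0.926 to 1.18) for LSD1, and HoxD stayed highest, at 2.51 (2.11 to 3.0) and 1.69 (1.41 to 2.01).

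The control itself varied. IgG exceeded Input 1.71-fold (1.47 to 2.0) in HoxA and 1.53-fold (1.31 to 1.80) in HoxC, against 1.26-fold (1.07 to 1.49) in HoxD and 1.18-fold (1.04 to 1.33) in HoxB. In the flanks together it exceeded Input 1.08-fold (1.02 to 1.14). Against Input, LSD1 was 1.82-fold higher (1.71 to 1.95) in the windows, with 2.17 (1.88 to 2.51) in HoxA as the highest and 1.54 (1.37 to 1.72) in HoxB as the lowest. By its value alone HoxA was thus the lowest of the clusters against IgG and the highest against Input. Its interval overlaps those of all other clusters against IgG, and those of HoxC and HoxD against Input. The part of IgG in the LSD1 and H3K4me2 signal of the windows was not tested.

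The second comparison set both ChIP libraries against each other with no shared control, which bears on whether the LSD1 library filled the clusters as a Polycomb mark is known to. LSD1 to H3K4me2 was 0.840 (0.803 to 0.880) in the 4 windows together, and so below 1. It was 0.796 (0.727 to 0.871) in HoxA, 0.824 (0.742 to 0.914) in HoxD, 0.841 (0.765 to 0.924) in HoxC and 0.890 (0.820 to 0.967) in HoxB. In the flanks it was 0.887 (0.853 to 0.922). Divided by the flanks, the windows stood at 0.948 (0.892 to 1.01) together, with 0.769 (0.676 to 0.874) in HoxC, 0.775 (0.662 to 0.907) in HoxD, 0.943 (0.834 to 1.07) in HoxA and 1.13 (1.02 to 1.25) in HoxB. With flanks 1 window size further out HoxC stood at 1.08 (0.962 to 1.21), HoxA at 0.681 (0.594 to 0.780) and HoxB at 1.08 (0.977 to 1.20). HoxD, at 0.670 (0.569 to 0.789), stayed below 1 as it did with the adjacent flanks. Among the 8 flanks the highest LSD1 to H3K4me2 ratio, 1.39 (1.19 to 1.62), was that of the left flank of HoxC, which held 0 H3K4me2 peaks.

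Each window was then ranked among 16637 autosomal tiles of 140 kb, which is the size of HoxA and HoxC, while HoxB spans 200 kb and HoxD 130 kb. The LSD1 to IgG ratio was lower than in HoxA in 90.6% of tiles, than in HoxB in 92.0%, than in HoxC in 93.7% and than in HoxD in 94.5%. The tile median was 0.886. LSD1 to H3K4me2, with a tile median of 1.18, was lower than in the windows in only 7.41% (HoxA), 9.47% (HoxD), 10.9% (HoxC) and 15.4% (HoxB) of tiles. The clusters therefore lay at the high end of the genome for LSD1 over IgG and at the low end for LSD1 over H3K4me2. The 9162 tiles with no H3K4me2 peak had a median LSD1 to H3K4me2 ratio of 1.32, and the 1622 tiles with 5 to 9 H3K4me2 peaks, the range found in the windows, had a median of 0.840 (middle 50% of tiles 0.782 to 0.900). LSD1 to IgG in these 1622 tiles had a median of 1.23 (middle 50% 1.13 to 1.33), and H3K4me2 to IgG one of 1.46 (1.29 to 1.67). The values of the 4 windows together, 0.840, 1.32 and 1.57 in that order, lay within the middle 50% of such tiles. Singly, HoxC (1.35) and HoxD (1.38) exceeded it for LSD1 to IgG, and HoxD (1.68) for H3K4me2 to IgG. With Input as the control the 4 windows together lay above it: LSD1 to Input was 1.82, where 75% of such tiles were below 1.63, H3K4me2 to Input was 2.17, where 75% were below 2.03, and IgG to Input was 1.38, where 75% were below 1.32. IgG to Input in HoxA, at 1.71, exceeded the 95th percentile of such tiles, 1.53. For IgG to Input, HoxA exceeded 99.7% of all tiles and HoxC 98.5%, against 88.2% for HoxD and 80.8% for HoxB.

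**Figure D2:**
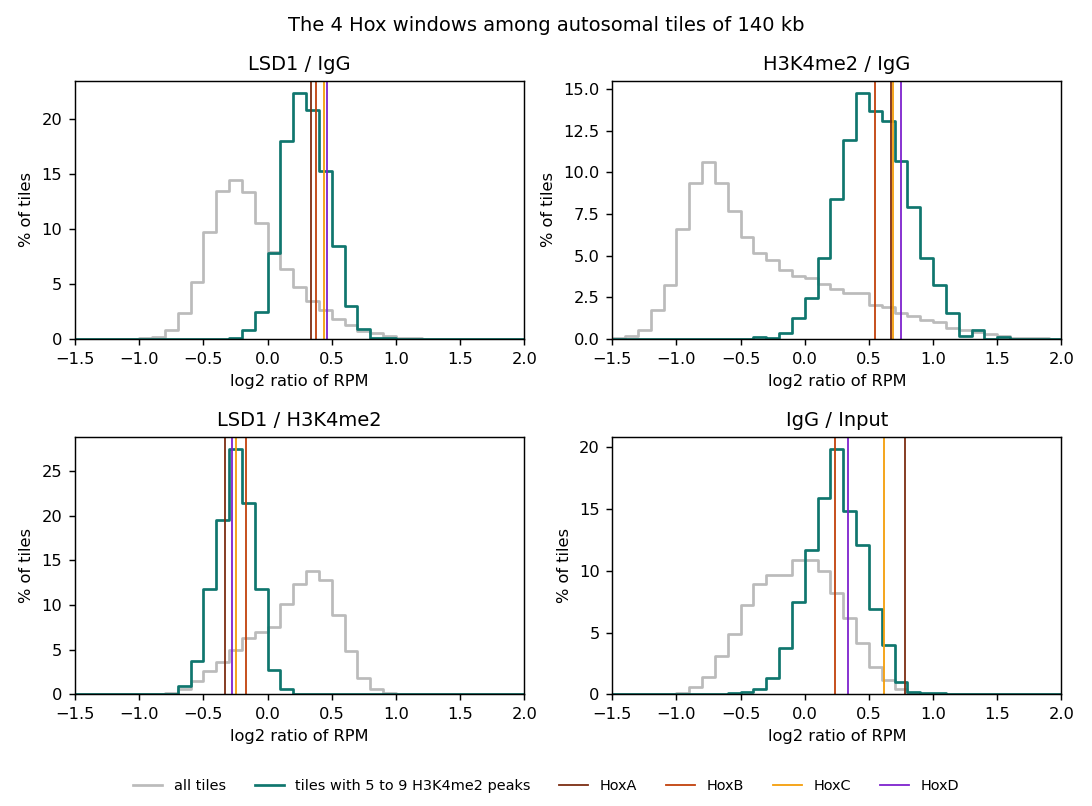
Share of autosomal 140 kb tiles (y axis, percent) by log2 ratio of RPM between 2 libraries (x axis), for all 16637 tiles (grey) and the 1622 tiles with 5 to 9 H3K4me2 peaks (green), with the 4 Hox windows as vertical lines. The windows sit to the right of the grey curve for LSD1 to IgG, to its left for LSD1 to H3K4me2, and inside the green curve for both.

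The third comparison described the called peaks. H3K4me2 peaks numbered 9 in HoxA, 7 in HoxB, 9 in HoxC and 5 in HoxD, or 49.2 per Mb over the windows, against 40.2 per Mb in the flanks and 13.3 per Mb over the autosomes. They covered 3.28% of the windows, the same share as in the flanks, and 1.14% of the autosomes. They were not broad: the median width was 683.5 bp, against 736 bp over the autosomes, and the widest reached 1082 bp, against 7611 bp. Of the 30 peaks, 7 fell in the upper 50% of the H3K4me2 list by read density. The windows thus held many peaks of modest height. Of the H3K4me2 reads in the windows 19.2% (18.1 to 20.5) lay in these peaks, against 31.7% (30.5 to 32.9) in the flanks. The clusters differed in this. The share was 15.6% in HoxB against 40.8% in its flanks, 24.2% against 31.9% in HoxA and 14.9% against 19.4% in HoxD. In HoxC the order was the reverse, at 22.0% against 15.2%.

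The 5 LSD1 peaks, 8.20 per Mb, compare with 3 in the flanks (2.46 per Mb) and 2.11 per Mb over the autosomes. HoxA held 1, HoxB 1, HoxC 2 and HoxD 1. The 1622 autosomal tiles of 140 kb with 5 to 9 H3K4me2 peaks held a median of 1 LSD1 peak (5th to 95th percentile 0 to 3). Beside tiles as rich in H3K4me2 peaks, the number of LSD1 peaks in the windows was thus not unusual. Of the 30 H3K4me2 peaks 4 held an LSD1 peak (13.3%, exact interval 3.76 to 30.7), against 14.3% of H3K4me2 peaks over all autosomes. Of the 5 LSD1 peaks 4 lay in an H3K4me2 peak, against 91.8% over the autosomes. At this number of peaks neither share could be told apart from that of the autosomes. Reads that made a peak are counted again in it here, so the library behind a call is favoured in its own peaks.

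In HoxA the LSD1 peak (chr6:52153980-52154340, 64.0 kb into the window) held 0 Input, 2 IgG, 15 LSD1 and 16 H3K4me2 reads. Its LSD1 to IgG ratio was 6.11 (1.42 to 55.1). In HoxC the first of the peaks (chr15:102751711-102752328) held 0, 4, 28 and 25 reads in the same order and had a ratio of 5.71 (2.0 to 22.4). The other (chr15:102811990-102812321) held 0, 1, 14 and 13 reads. In these 3 peaks and in that of HoxD the reads of LSD1 and H3K4me2 were close in number. The HoxD peak (chr2:74600700-74601647, 111 kb into the window), the widest of the 5 at 948 bp, held 1 Input, 8 IgG, 36 LSD1 and 37 H3K4me2 reads. Its LSD1 to IgG ratio was 3.67 (1.68 to 9.14).

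The LSD1 peak of HoxB differed from the others. It lay 11.5 kb into the window (chr11:96051526-96052032) and held 2 Input, 3 IgG, 23 LSD1 and 7 H3K4me2 reads. LSD1 exceeded IgG there 6.25-fold (1.89 to 32.5) and exceeded H3K4me2 3.61-fold (1.50 to 9.97). As at every LSD1 peak, the call rests on these same LSD1 reads, which favours LSD1 in both ratios, and the intervals do not allow for it. At the other 4 the LSD1 to H3K4me2 ratio lay between 1.03 and 1.23, with each interval spanning 1. The nearest called H3K4me2 peak was 12555 bp away, but H3K4me2 reads were not lacking around it. The bin of 5 kb that holds it (chr11:96050001-96055000) had 52 LSD1 and 56 H3K4me2 reads, with LSD1 to H3K4me2 at 1.02 (0.687 to 1.52) and H3K4me2 to IgG at 2.44 (1.40 to 4.48). Among the 122 bins of 5 kb in the windows, 2 had an interval of LSD1 to H3K4me2 above 1, against 4.99% of autosomal bins. The one with more LSD1 reads, singled out after its values were seen, lay in HoxD (chr2:74580001-74585000). It held 7 Input, 8 IgG, 27 LSD1 and 9 H3K4me2 reads, with LSD1 to H3K4me2 at 3.30 (1.51 to 7.97) and LSD1 to IgG at 2.75 (1.22 to 7.01), and no called peak of LSD1. No interval was widened for how many peaks or bins were looked at.

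The H3K4me2 peaks with the most reads in HoxA lay at chr6:52166928-52167994, chr6:52108611-52109651 and chr6:52171161-52171853, with 49, 44 and 39 H3K4me2 reads. LSD1 reads there were 16, 18 and 13, and IgG reads 10, 9 and 6. LSD1 to IgG was 1.30 (0.556 to 3.22) in the first, so in the strongest H3K4me2 peak of HoxA LSD1 could not be told apart from IgG at this depth. In HoxB the 3 were chr11:96112689-96113558, chr11:96132259-96133160 and chr11:96064587-96065398, with 43, 40 and 39 H3K4me2 reads and 24, 22 and 17 LSD1 reads. IgG held 5, 4 and 1 reads in them. None of these HoxB peaks was called for LSD1, although their LSD1 to IgG ratios were 3.91 (1.46 to 13.1), 4.48 (1.52 to 17.9) and 13.9 (2.17 to 579).

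In HoxC the 3 leading H3K4me2 peaks were chr15:102751758-102752763, chr15:102767101-102767824 and chr15:102829310-102830133, with 40, 36 and 30 H3K4me2 reads and 36, 13 and 15 LSD1 reads. The first holds an LSD1 peak and had an LSD1 to H3K4me2 ratio of 0.990 (0.613 to 1.59), against 0.397 (0.193 to 0.767) in the second. In HoxD they were chr2:74600506-74601587, chr2:74549873-74550585 and chr2:74510804-74511317, with 42, 28 and 21 H3K4me2 reads and 36, 13 and 12 LSD1 reads. The first, at 1082 bp the widest H3K4me2 peak of all 4 windows, also holds an LSD1 peak, with a ratio of 0.943 (0.587 to 1.51). An LSD1 call rests on LSD1 reads, so a higher LSD1 to H3K4me2 ratio is favoured by the call in H3K4me2 peaks that hold one.

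Over the 30 peaks LSD1 reads ranged from 2 to 36 (median 13), H3K4me2 reads from 13 to 49 (median 25.5) and IgG reads from 0 to 10 (median 3). Summed, the peaks held 25 Input, 108 IgG, 438 LSD1 and 828 H3K4me2 reads. LSD1 exceeded IgG 3.31-fold (2.67 to 4.12) in them, against 3.38-fold (3.36 to 3.40) in the 31975 other autosomal H3K4me2 peaks. The ratio of these ratios was 0.978 (0.790 to 1.22). LSD1 to H3K4me2 was 0.582 (0.517 to 0.654), against 0.514 (0.512 to 0.516) elsewhere, a ratio of 1.13 (1.01 to 1.27). That interval leaves out the variation from peak to peak, which ran from 0.204 to 1.18 within the windows (middle 50% 0.435 to 0.669, with 0.404 to 0.624 elsewhere; 0.5 was added to each count for these single peaks). The Hox peaks also held fewer H3K4me2 reads than the others, with medians of 25.5 and 32, and the part of the call on these reads in the difference was not tested. IgG exceeded Input 3.45-fold (2.22 to 5.57) in the Hox peaks and 2.10-fold (2.08 to 2.12) elsewhere.

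Peak by peak, the interval of LSD1 to IgG lay above 1 in 15 of the 30 (4 of 9 in HoxA, 4 of 7 in HoxB, 3 of 9 in HoxC and 4 of 5 in HoxD), against a background of 54.7% of autosomal H3K4me2 peaks. That of LSD1 to H3K4me2 lay below 1 in 10 of the 30, against 57.9%, and above 1 in 0 of the 30, against 0.0156%. H3K4me2 to IgG lay above 1 in 29 of the 30, against 97.1%, and IgG to Input in 1 of the 30, against 4.34%. All these peaks, the background included, were called on H3K4me2 reads. The call thus raises H3K4me2 to IgG and lowers LSD1 to H3K4me2 in them, so these shares are no sign of enrichment by themselves. Fewer reads per peak widen the interval, and the Hox peaks held fewer. Their LSD1 to H3K4me2 ratio was also higher, at 0.582 against 0.514. The part of either in these shares was not tested.

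**Figure D3:**
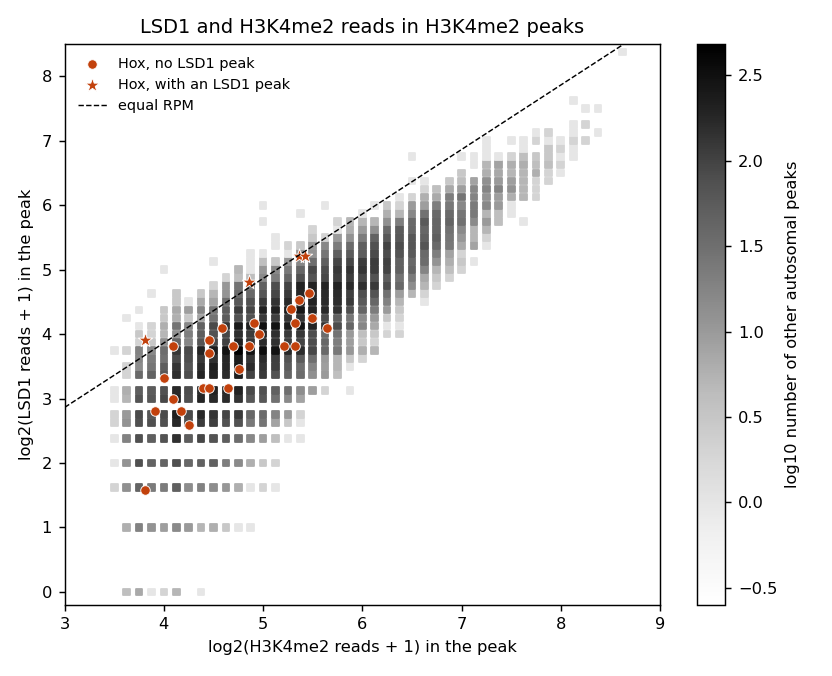
LSD1 reads against H3K4me2 reads in H3K4me2 peaks, both as log2(reads + 1), for the 30 peaks of the Hox windows (orange; stars hold an LSD1 peak) over the 31975 other autosomal peaks (grey squares, shaded by log10 of their number; peaks above 9 on the x axis are not drawn). The Hox peaks lie inside the grey cloud, mostly below the dashed line of equal RPM, with the 4 stars on or next to it. LSD1 calls rest on LSD1 reads, which favours a high place of the stars.

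Around the centres of the 30 peaks both H3K4me2 and LSD1 were highest at the centre and low within 1 to 2 kb. Within 250 bp of the centre H3K4me2 stood at 6.87 RPM per kb and LSD1 at 3.83, while IgG stood at 1.02 and Input at 0.263. From 1 to 2 kb out, H3K4me2 stood at 1.07, LSD1 at 0.860, IgG at 0.676 and Input at 0.438. Around other autosomal peaks both stayed higher at that distance, at 2.32 for H3K4me2 and 1.48 for LSD1, from 7.58 and 3.80 at the centre. LSD1 to IgG at 1 to 2 kb was 1.27 (1.06 to 1.53) in the Hox windows and 1.95 (1.94 to 1.96) elsewhere. A read near several peaks was counted once for each, so the intervals of this profile are too narrow. The distance classes also take in neighbouring peaks and the outer parts of wide peaks. Mean peak width was 667 bp in the windows and 863 bp elsewhere, and the part of width and neighbours in the profiles was not tested. Beyond 1 kb the Hox profile stayed nearly level for LSD1, at 0.900 RPM per kb from 2 to 3 kb and 0.924 from 3 to 5 kb, while IgG stood at 0.743 and 0.753. H3K4me2 stood at 0.844 RPM per kb from 2 to 3 kb and at 1.21 from 3 to 5 kb. The LSD1 to H3K4me2 ratio in the class from 2 to 3 kb was 1.07 (0.910 to 1.25). In the class nearer to the centre, from 1 to 2 kb, it was 0.802 (0.689 to 0.932), and in the farthest class, from 3 to 5 kb, 0.761 (0.687 to 0.842).

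**Figure D4:**
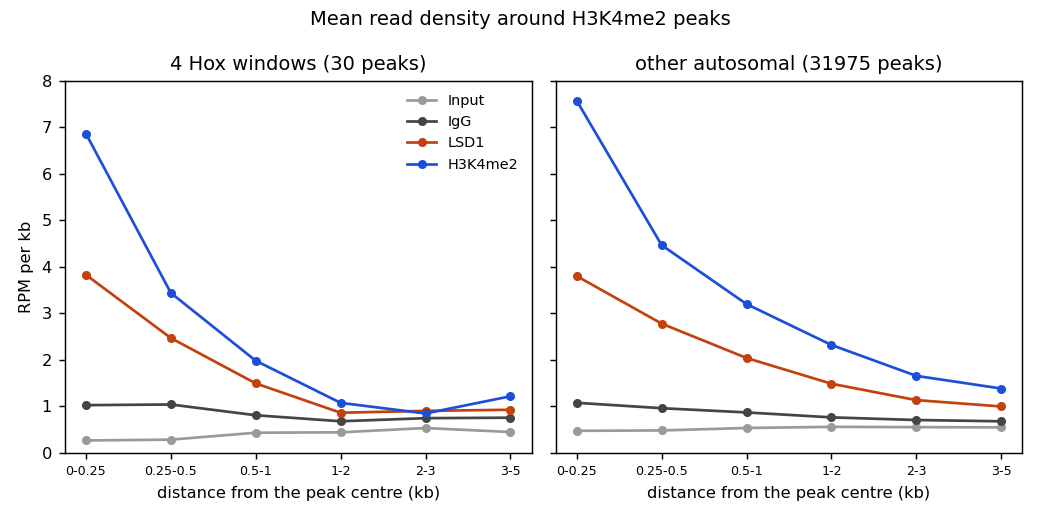
Mean read density (RPM per kb, y axis) by distance from the centre of H3K4me2 peaks (x axis, kb, classes of unequal width) for the 30 peaks in the Hox windows and the 31975 other autosomal peaks. LSD1 starts at 3.83 and 3.80 RPM per kb at the centre and reaches 0.860 and 1.48 at 1 to 2 kb. Reads near several peaks count once for each, and neighbouring peaks are not left out.

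Signal spread between the peaks was measured on reads outside every called peak of the 4 libraries. LSD1 to IgG was 1.20 (1.13 to 1.27) in the windows and 1.03 (0.979 to 1.08) in the flanks, and the windows exceeded the flanks 1.17-fold (1.08 to 1.26). It was 1.16 (1.03 to 1.30) in HoxA, 1.19 (1.07 to 1.32) in HoxB, 1.21 (1.07 to 1.37) in HoxC and 1.26 (1.10 to 1.44) in HoxD. Divided by the flanks of the same cluster, it was 1.53 (1.28 to 1.85) in HoxD and 1.18 (1.01 to 1.38) in HoxC. In HoxA, at 1.13 (0.967 to 1.32), and in HoxB, at 1.05 (0.922 to 1.20), the interval of that quotient includes 1. H3K4me2 behaved alike and more strongly, at 1.34 (1.26 to 1.41) in the windows and 0.950 (0.906 to 0.997) in the flanks, a ratio of 1.41 (1.31 to 1.51). LSD1 to H3K4me2 outside peaks was 0.897 (0.853 to 0.943) in the windows and 1.08 (1.03 to 1.13) in the flanks, a ratio of 0.829 (0.775 to 0.887). Within the H3K4me2 peaks the order was the opposite, at 0.582 (0.517 to 0.654) in the windows and 0.457 (0.419 to 0.498) in the flanks. Outside peaks LSD1 to H3K4me2 in HoxB, divided by its flanks, was 0.921 (0.822 to 1.03), an interval that includes 1. IgG to Input was 1.34 (1.24 to 1.44) in these stretches and 1.06 (1.00 to 1.12) in the flanks.

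In 122 bins of 5 kb that tile the windows, LSD1 reads ranged from 5 to 62 (median 26, against 10 over 416389 autosomal bins) and H3K4me2 reads from 4 to 101 (median 34, against 8). IgG reads ranged from 4 to 29 (median 16, against 10) and Input reads from 4 to 27 (median 9, against 8). The interval of LSD1 to IgG lay above 1 in 20 of the 122 bins, against 5.23% of autosomal bins: 4 of 28 in HoxA, 5 of 40 in HoxB, 4 of 28 in HoxC and 7 of 26 in HoxD. For H3K4me2 to IgG it did so in 46 of the 122, against 8.06%. For IgG to Input it did so in 18 of the 122, against 2.27%, and 10 of these 18 lay in HoxA. Against Input, LSD1 lay above 1 in 43 of the 122 bins, where 6.74% of autosomal bins did so, and H3K4me2 in 59, where 8.99% did so. LSD1 to H3K4me2 lay above 1 in 2 of the 122 bins, against 4.99%, and below 1 in 13 of them, against 4.64%. One of the 2 is the HoxD bin given above. The other is the first bin of the HoxA window, with 14 LSD1 and 4 H3K4me2 reads, where LSD1 to IgG was 1.04 (0.438 to 2.53).

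Bins with many LSD1 reads were those with many H3K4me2 reads. In HoxA the 2 bins with the most LSD1 reads lay 60 and 15 kb into the window, with 62 and 55 LSD1 reads and 76 and 101 H3K4me2 reads. In HoxB they lay at 70 and 90 kb, with 61 and 55 LSD1 reads and 99 and 87 H3K4me2 reads. In HoxC, at 10 and 25 kb, they held 57 and 52 LSD1 reads and 84 and 82 H3K4me2 reads, and in HoxD, at 110 and 60 kb, 43 and 41 LSD1 reads and 62 and 52 H3K4me2 reads. Each of these 8 bins touches an H3K4me2 peak. IgG held 13 to 29 reads in them, and 4 to 29 over all 122 bins. Against IgG the bins ran from 1.60 (0.998 to 2.62), in the HoxA bin at 15 kb, to 3.16 (1.80 to 5.86), in the HoxA bin at 60 kb. IgG itself exceeded Input 3.73-fold (1.52 to 11.0) in the first of these and 1.07-fold in the second.

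Over the 122 bins, Pearson's r of LSD1 with H3K4me2 reads was 0.885 and Spearman's rho 0.869. The r within a cluster was 0.869 in HoxA, 0.919 in HoxB, 0.892 in HoxC and 0.838 in HoxD. With IgG, LSD1 reads had an r of 0.483, and with Input one of -0.058. Neighbouring bins are not independent, and the libraries share base composition and mappability, so these are descriptions. In the 31 bins that touch an H3K4me2 peak LSD1 to IgG was 1.73 (1.57 to 1.92), and in the 91 others 1.16 (1.09 to 1.24).

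The tracks show how signal was spread along each cluster. In HoxB, 30 to 70 kb into the window, each of the 8 bins held 7 to 20 LSD1 and 8 to 18 H3K4me2 reads, below the window's medians of 24.5 and 29 and around the autosomal medians of 10 and 8 or above them. The stretch was chosen after its values were seen. No H3K4me2 peak was called there, and peaks resumed at 72.7 kb. In HoxD no peak was called between the H3K4me2 peak at 59.9 kb and that at 111 kb, although the bins at 75 and 80 kb held 36 and 30 LSD1 reads and 40 and 36 H3K4me2 reads, above the window's medians of 23.5 and 34.5. H3K4me2 peaks ran from 17.8 to 101 kb in HoxA and from 11.8 to 125 kb in HoxC.

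**Figure D5:**
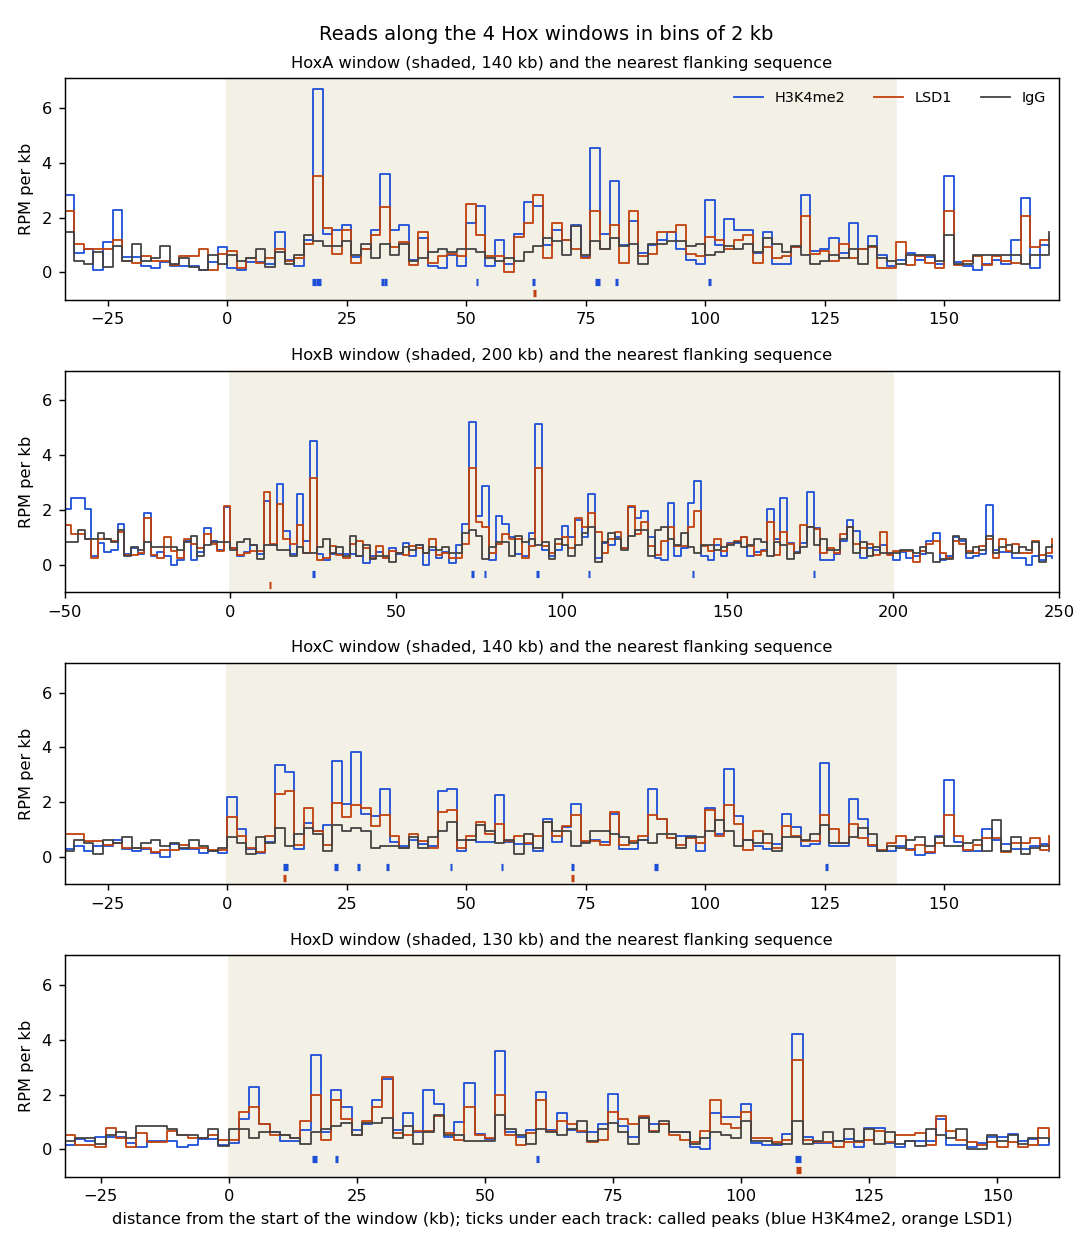
Reads per 2 kb bin (RPM per kb, y axis) of H3K4me2 (blue), LSD1 (orange) and IgG (dark grey) along each Hox window (shaded) and the nearest flanking sequence, by distance from the window's start (x axis, kb), with called peaks as ticks below the tracks. LSD1 is high where H3K4me2 is high and stays lower than it at nearly all maxima; the LSD1 tick at 11.5 kb in HoxB has no H3K4me2 tick near it.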

How the data were processed

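The authors deposited aligned reads of 36 bases on mm9 (build per the submitters' processing notes), 1 line per read with a BED score of 1 in every line. For IgG, LSD1 and H3K4me2 they deposited peak positions without heights or p-values. Aligner, peak caller and the control for calling: not given in the sources used here. Positions are printed counted from 1.

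Each read start was moved 100 bp along its strand and the read was counted where that base fell. Ratios of RPM carry exact binomial intervals conditional on both counts, and ratios of ratios the exact conditional interval of the odds ratio. Shares carry Clopper-Pearson intervals. No library holds reads that share start and strand, and intervals cover counting error only. Autosomal tiles and bins with under 50% of the median Input count were left out. The ratios and intervals were tested on simulated Poisson counts, which hold counting error only, so that test says nothing on variation between libraries. Named were all LSD1 peaks, the 3 H3K4me2 peaks with most reads and the 2 bins with most LSD1 reads of each window. The windows, genes and comparisons were chosen with earlier results of these data known. The tiles with 5 to 9 peaks, the profile and the spread over peaks were added after seeing the data. Tools were Python 3.11.15 with scipy 1.17.1, numpy 2.4.6 and pandas 2.3.3, and figures used matplotlib 3.10.9.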

Additional observations from a re-analysis of the deposited data

How the results depend on the processing

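No paired analysis was possible because replicates were lacking. For 21 results 41 alternative values were computed: 25 stayed within the interval of the value reported (counts of peaks within 1.5 times), 14 moved outside it and 2, whose reported interval lay on 1 side of 1, crossed 1. LSD1 to IgG in HoxB over its flanks, whose interval includes 1, went from 0.958 to 1.04 with flanks further out and is counted as within. With Input as control LSD1 was 1.82-fold higher in the windows, H3K4me2 2.17-fold and LSD1 outside peaks 1.60-fold, and LSD1 in windows over flanks was 1.45-fold. Scaled to reads outside called peaks, LSD1 to IgG was 1.43, H3K4me2 to IgG 1.90, LSD1 to H3K4me2 0.751 and LSD1 to IgG outside peaks 1.30. The upper 50% of the H3K4me2 list left 7 of the 30 peaks. Flanks 1 window size further out turned HoxC to 0.990 for H3K4me2 to IgG and 1.08 for LSD1 to H3K4me2. Leaving out IgG peaks changed nothing, as none lies in the windows. The alternatives for the LSD1 to H3K4me2 ratio in peaks and for all windows over flanks were added after seeing the data. Depth limits single peaks most: with 3 IgG reads at a typical Hox peak, intervals span several-fold.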

Other observations

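Beside the clusters, 3 LSD1 peaks lay in the flanks. In the left flank of HoxB (chr11:95867932-95868416) 20 LSD1, 35 H3K4me2 and 2 IgG reads were counted. In the right flank of HoxC (chr15:103012507-103013150) these were 28, 16 and 5, and in the left flank of HoxA (chr6:51956594-51956912) 11, 10 and 1. The widest H3K4me2 peak of the flanks, in the left flank of HoxB (chr11:95842447-95845843), spanned 3397 bp with 200 H3K4me2, 94 LSD1 and 15 IgG reads, and is wider than any H3K4me2 peak of the 4 windows.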
